A study of Mus musculus with 2 samples.

Results

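Oxidative phosphorylation genes were examined in single cells from the mouse omentum, an abdominal fat tissue with lymphoid clusters known as milky spots. Members were all genes whose symbol starts with mt-, Ndufa, Ndufb, Ndufc, Ndufs, Ndufv, Cox4, Cox5, Cox6, Cox7, Cox8, Uqcr or Atp5, together with Sdha, Sdhb, Sdhc and Sdhd. This rule took 105 of the 19960 genes listed, of which 13 are encoded by mitochondrial DNA and 92 by nuclear DNA. The nuclear members comprised 37 genes of complex I, 4 of complex II, 8 of complex III, 16 of complex IV and 17 of complex V, and the prefixes also took 8 assembly factors of complex I and 2 paralogs, Cox7a2l and Ndufa4l2. For 19 members, including every mt- gene, the symbol was filled in from GENCODE through the Ensembl ID, because the deposited list repeats the ID in place of the symbol.

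The series holds 2 libraries of omental cells, 1 per genotype, wild type (WT) or Postn-DTR. Postn-DTR mice are C57BL/6 mice with a diphtheria toxin receptor (DTR) inserted by genome editing into Postn, a gene of some fibroblasts and other mesenchymal cells, so that diphtheria toxin (DT) removes cells that express it. Mice of both groups received DT intraperitoneally, and cells were taken 5 days later. Since mice were pooled by group, there are no replicates, no test between groups was possible, and genotype cannot be told apart from library. The sources used here give no ages.

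Oxidative phosphorylation passes electrons through complexes I to IV of the mitochondrial inner membrane. Complexes I, III and IV pump protons, and complex V (ATP synthase) uses the resulting gradient to make ATP. Complexes I, III, IV and V are built from subunits of both genomes, whereas complex II, which also works in the tricarboxylic acid cycle, is wholly nuclear. Mitochondrial DNA is transcribed into long precursors of each strand that are cut into single mRNAs, while nuclear subunits are transcribed one by one, translated in the cytosol and imported. Lymphocytes, plasma cells and neutrophils differ in how much they rely on this pathway, neutrophils being known for few mitochondria and for glycolysis.

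In 2 cases a pair of mitochondrial genes shares a single mRNA with overlapping reading frames, so the ratio of partners compares values from 1 transcript. These overlaps are shown because the ratios differed between the libraries, as described further on. The bases that belong to both genes are in capitals, with 12 flanking bases on each side, read 5′ to 3′ from the + strand of mitochondrial DNA (GRCm38).
mt-Atp8 and mt-Atp6, chrM:7915-7981, shared bases 7927 to 7969 (43 bases): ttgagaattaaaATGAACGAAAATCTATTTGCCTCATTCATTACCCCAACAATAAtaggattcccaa
mt-Nd4l and mt-Nd4, chrM:10155-10185, shared bases 10167 to 10173 (7 bases): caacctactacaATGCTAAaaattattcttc

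The libraries held 8654 WT and 5727 DTR cells after filtering, with 80152253 and 81011184 unique molecular identifiers (UMIs, each standing for 1 captured transcript). The median cell held 5635 UMIs in WT and 8472 in DTR, and 65 barcodes occurred in both libraries. Postn, the targeted gene, was counted 84 times in 34 WT cells and 20 times in 8 DTR cells. Stromal-like cells, a known source of it, numbered 48 in WT and 23 in DTR, so the gene checks the labels only weakly. Clusters were named "X-like" from marker genes. In all, 14 named classes had at least 30 cells in each library, from 46 CD8 T-like cells in DTR to 2178 plasma-like cells in DTR. Within these classes the median DTR cell held fewer UMIs than the median WT cell, except in CD8 T-like and monocyte-like cells. The medians in WT and DTR were 29325 and 23792 in plasma-like, 8681 and 3473 in neutrophil-like and 10949 and 8191 in DC-like cells. The DC-like cluster carried 6 markers of the macrophage list, a share of 0.857, above its share of 0.778 of the DC list. It took the DC name from markers among its 10 leading genes, so values of this class may not be those of dendritic cells alone. Most WT cells of the B2 B-like class came from cluster 1 (1292 of 1500), whereas most DTR cells came from cluster 12 (266 of 460). Among neutrophil-like cells, cluster 10 held 187 of 240 in WT and cluster 9 held 474 of 789 in DTR. Levels are means, over the cells of a class, of a gene's UMIs per 10000 UMIs of the cell, and sums over members are given in percent of UMIs. Intervals are exact 95% intervals on summed UMIs and cover counting error only. All classes come from the same 2 libraries, so a like sign in many classes is not replication.

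In WT, mt- transcripts made up 0.749% of UMIs in neutrophil-like cells and 1.19% in plasma-like cells, and between 1.61% (monocyte-like) and 2.71% (CD4 T-like) in the other 12 classes. Nuclear members made up 1.0% in neutrophil-like and 1.01% in plasma-like cells and between 1.67% (B2 B-like) and 2.24% (monocyte-like) in the rest. Neutrophil-like and plasma-like cells were thus low in both, and the other classes took different orders in the 2 sums. In plasma-like cells immunoglobulin and T cell receptor genes took 53.1% of UMIs in WT and 50.4% in DTR, which lowers every other share.

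Mitochondrial and nuclear transcripts did not stand in 1 ratio across cell types. The ratio of the mt- sum to the nuclear sum in WT was 1.6 in B2 B-like and 1.51 in B1 B-like cells, where mt- transcripts were the more abundant. CD4 T-like cells followed at 1.39, NKT-like cells at 1.21, and plasma-like, gd T-like, CD8 T-like, ILC2-like, Treg-like and ILC3-like cells lay between 1.05 and 1.18. Nuclear transcripts were the more abundant in DC-like (0.964), NK-like (0.857), neutrophil-like (0.746) and monocyte-like cells (0.719). The highest class was 2.23 times the lowest. This order rested in part on a few cells. Over cells with at most 10% mitochondrial UMIs (2.0% of WT B2 B-like and 3.04% of WT CD4 T-like cells exceeded this) the ratio was 1.51 in B1 B-like, 1.415 in B2 B-like, 1.21 in NKT-like and 1.15 in CD4 T-like cells, and 0.925 in ILC3-like, 0.818 in NK-like and 0.793 in DC-like cells. The mt- sum of CD4 T-like cells was then 2.30%, below the 2.66% of B1 B-like cells. Across the 14 classes the sums were correlated in WT with Pearson's r = 0.605 and Spearman's rho = 0.108, and without plasma-like and neutrophil-like cells r was −0.434. In DTR the values were 0.315, 0.134 and −0.499. These correlations describe classes of 1 library that share its depth and processing.

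**Figure D1:**
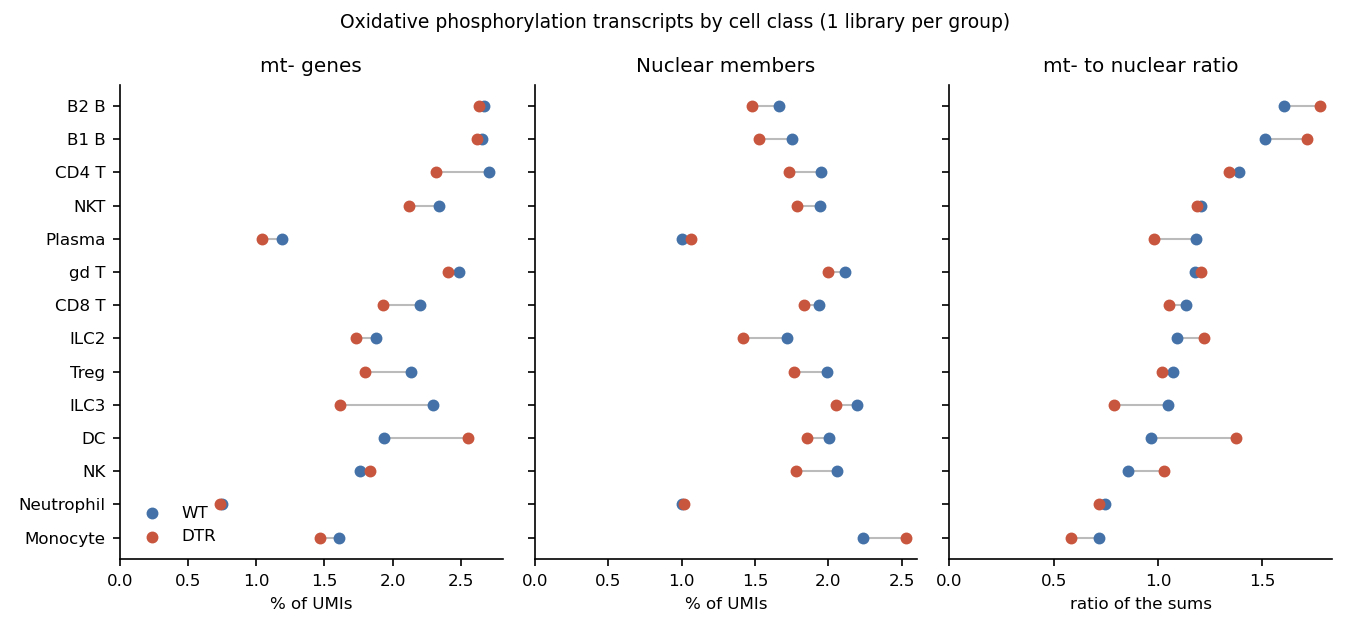
Sums of the 13 mt- genes (left) and the 92 nuclear members (middle) in percent of UMIs and their ratio (right) in 14 named classes, WT in blue and DTR in red, each point the mean over the cells of 1 library. Neutrophil-like and plasma-like cells lie lowest in both sums, B2 B-like and B1 B-like cells have the highest WT ratios, and DC-like cells show the widest gap between libraries (0.964 in WT and 1.38 in DTR).

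Between libraries the sums differed little. The mt- sum was lower in DTR in 12 of 14 classes and the nuclear sum in 11 of 14, with median log2 ratios DTR/WT of −0.12 and −0.12, and no class passed 1.5-fold in either sum. The mt- sum was lowest relative to WT in ILC3-like cells (2.30% in WT and 1.62% in DTR) and highest in DC-like cells (1.93% and 2.55%). Over cells with at most 10% mitochondrial UMIs it was 2.04% in WT ILC3-like cells. The nuclear sum was lowest relative to WT in ILC2-like cells (1.72% and 1.42%) and highest in monocyte-like cells (2.24% and 2.53%). The signs were close to 0 in several classes. The mt- sum of NK-like cells, 1.76% in WT and 1.84% in DTR, changed sign in 4 of the 17 alternative settings, and the mt- sum of neutrophil-like cells (0.749% and 0.731%) in 7 of them.

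The ratio of mt- to nuclear transcripts was lower in DTR in 8 classes and higher in 6. The median log2 ratio was −0.04, and it took the other sign in 4 of 17 settings. The classes that stood furthest apart were few. In DC-like cells the ratio went from 0.964 to 1.38, a log2 difference of 0.51 (0.35 on summed UMIs, interval 0.32 to 0.39; 0.35 to 0.68 over all settings). The quartiles of the mt- share over DC-like cells were 1.01%, 1.4% and 1.89% in WT and 1.25%, 1.66% and 2.46% in DTR, so the difference was spread over the distribution. In ILC3-like cells the ratio went from 1.05 to 0.789 (log2 −0.41; −0.47 to −0.17 over all settings) on 55 and 49 cells. Over cells with at most 10% mitochondrial UMIs, which leaves out 1 of the 55 WT cells, the WT ratio was 0.925 and the log2 difference −0.23. In monocyte-like cells it went from 0.719 to 0.581 (log2 −0.31; −0.47 to −0.26). In those cells 8 of the 9 neutrophil markers were higher in DTR, their summed level being 3.52 UMIs per 10000 in WT and 50.8 in DTR, and the part of this in the result was not tested. At lower levels the sum of these markers was also higher in DTR in every other named class except neutrophil-like cells. It was 0.394 in WT and 0.877 in DTR in DC-like cells and 0.387 and 1.38 in ILC3-like cells, and its part there was not tested.

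In the classes made of several clusters the ratio depended on which cluster was read. In plasma-like cells it went from 1.18 to 0.980 (log2 −0.27), but cluster 2, with 376 WT and 983 DTR cells, gave 0.14 (0.01 over cells with at most 10% mitochondrial UMIs), cluster 19 gave −0.15, and clusters 4 and 17 gave −0.42 each. Cluster 2, with ratios of 1.54 in WT and 1.69 in DTR, held 62.6% of WT and 45.1% of DTR plasma-like cells. Cluster 4, with ratios of 0.923 and 0.688, held 19.6% and 33.9%. The part of this shift in the value of the class was not tested. In B2 B-like cells the ratio went from 1.6 to 1.77 (log2 0.15), but cluster 1 gave 0.01 and cluster 12 gave −0.50. In cluster 12, 13.9% of the WT cells exceeded a mitochondrial share of 10%, and over cells at or below that share the log2 difference was 0.01 in cluster 12 and 0.07 in the whole class. Erythroid markers summed to 4.30 UMIs per 10000 in WT B2 B-like cells and to 0 in DTR, and their part in the result was not tested. In neutrophil-like cells the log2 difference was −0.05, with −0.13 in cluster 9 and 0.14 in cluster 10, and over cells at or below 10% it was −0.15, −0.32 and 0.08.

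The mt- genes differed among themselves more than their sum did. In DTR, mt-Co1, the catalytic subunit of complex IV, was higher in 13 of 14 classes, whereas mt-Nd2, mt-Nd3 and mt-Nd4l, membrane subunits of complex I, were lower in every class with enough UMIs. Over all named classes, 1 of 175 pairs of mt- gene and class was past 1.5-fold higher in DTR and 33 were past 1.5-fold lower, beside 7.19% higher and 9.69% lower among all 70857 gene and class pairs. The higher pair was mt-Co1 in DC-like cells. The mt- share of pairs past 1.5-fold lower was 18.9%, and their median log2 ratio was −0.21 beside −0.02 for all genes.

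The 4 mt- genes with the lowest medians, mt-Nd3, mt-Nd6, mt-Nd2 and mt-Nd4l, all belong to complex I. mt-Nd3 was expressed at 0.522 to 1.06 UMIs per 10000 in WT and at 0.257 to 0.605 in DTR in the 11 classes tested, with a median log2 ratio of −0.82. Its lowest ratio was in NKT-like cells (0.952 in WT and 0.257 in DTR) and its highest in NK-like cells (0.639 and 0.482), and the counting interval lay below 0 in all 11. mt-Nd6, the gene of complex I that is read from the other strand, had a median of −0.75 over 10 classes and was higher only in DC-like cells (0.285 and 0.388). The last 14 bases of mt-Nd5 and mt-Nd6 overlap on opposite strands (chrM:13552-13565), and reads there can be given to either unless strand was used in counting.

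mt-Nd2 was lower in all 14 classes, with a median of −0.55. Its level was 12.5 in WT and 8.0 in DTR in B1 B-like cells, 9.16 and 5.62 in Treg-like cells, and 8.21 and 8.11 in DC-like cells, the smallest gap. mt-Nd4l had a median of −0.53, with 13.7 in WT and 6.49 in DTR in ILC3-like cells and 1.80 and 1.48 in neutrophil-like cells, where the counting interval (−0.20 to 0.11) included 0. The other 3 complex I genes lay closer to WT, with medians of −0.16 for mt-Nd4, −0.13 for mt-Nd1 and −0.13 for mt-Nd5. mt-Cytb, the mitochondrial subunit of complex III, was lower in 13 of 14 classes with a median of −0.42.

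Of the complex IV and complex V genes, mt-Co1 had a median above WT. The level of mt-Co1 was 55.1 in WT and 69.3 in DTR in B1 B-like cells, 44.5 and 72.6 in DC-like cells, and 37.8 and 47.1 in NK-like cells. ILC3-like cells were the exception (44.1 and 37.2), and the counting interval lay below 0 in 2 classes, ILC3-like and CD4 T-like, and above it in 11. The median of mt-Co1 was 0.13, against −0.08 for mt-Co2 and −0.16 for mt-Co3. Medians were −0.01 for mt-Atp6, a sign that was not kept in every setting, and −0.30 for mt-Atp8.

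Within the mt- sum, which needs no total over the other genes, the same order appeared. mt-Co1 made up a median of 21.7% of mt- UMIs in WT and 26.1% in DTR and was higher in 14 of 14 classes, and mt-Atp6 went from 14.7% to 15.8%, also higher in 14 of 14. mt-Nd2 went from 4.75% to 3.49%, mt-Nd4l from 5.33% to 3.68% and mt-Nd3 from 0.385% to 0.219%, each lower in 14 of 14. mt-Cytb went from 11.2% to 9.22% and mt-Nd6 from 0.190% to 0.133%, each lower in 13 of 14. mt-Nd1 and mt-Nd5 showed no common direction (lower in 7 and 6 classes).

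**Figure D2:**
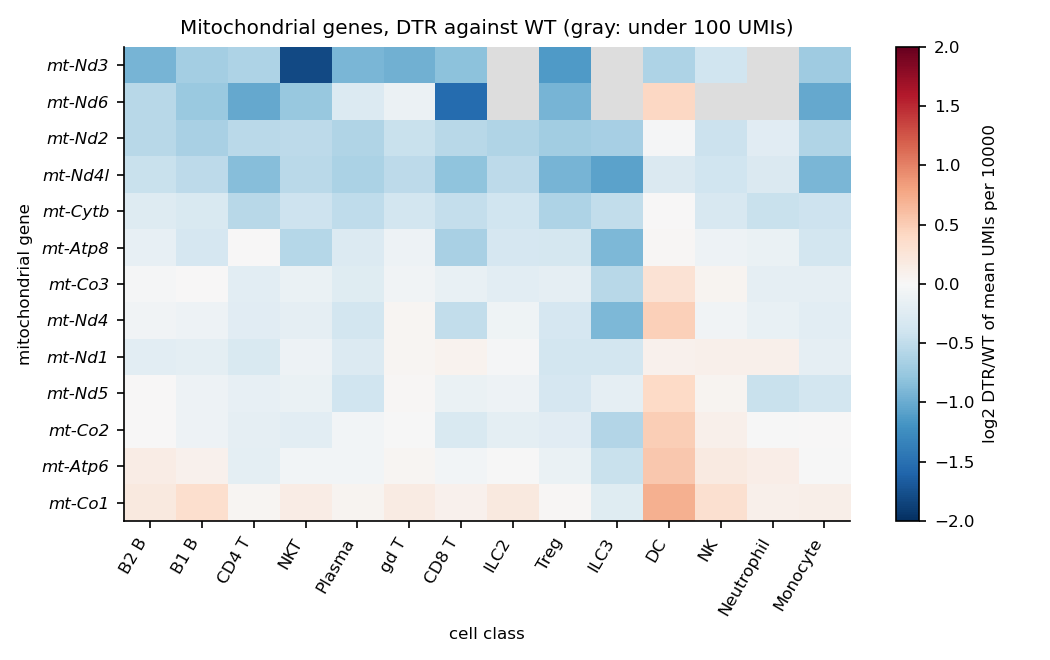
Log2 ratio DTR/WT of the mean UMIs per 10000 for the 13 mt- genes (rows) in 14 named classes (columns), blue for lower and red for higher in DTR, gray where a gene had under 100 UMIs. The rows of mt-Nd3, mt-Nd2 and mt-Nd4l are lower throughout, mt-Co1 is higher in 13 of 14 classes, and the DC-like column stands out with the highest values.

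The overlapping partners differed between the libraries in 1 direction: the first of each pair was lower relative to the second in DTR in every named class. mt-Nd4l was counted more often than its partner mt-Nd4 in WT, with a ratio of summed UMIs of 1.86 at the median of the classes (1.06 to 2.19), and at 1.38 (0.970 to 1.71) in DTR. The ratio was lower in DTR in 14 of 14 classes, and the counting intervals lay apart in 11. In plasma-like cells it was 2.19 (interval 2.11 to 2.26) in WT and 1.71 (1.67 to 1.75) in DTR. In neutrophil-like cells it was 1.06 (0.933 to 1.19) and 0.970 (0.887 to 1.06), and the intervals overlapped.

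mt-Atp8 was counted far less often than its partner mt-Atp6. The ratio had a median of 0.111 (0.0965 to 0.117) in WT and 0.0844 (0.0729 to 0.107) in DTR, was lower in DTR in 14 of 14 classes and had intervals apart in 8. In B1 B-like cells it was 0.111 in WT (0.107 to 0.114) and 0.0833 in DTR (0.0784 to 0.0885). In CD4 T-like cells it was 0.114 (0.108 to 0.120) and 0.107 (0.0909 to 0.125). Both reading frames of such an mRNA are present once per molecule, so a ratio other than 1 is not a ratio of molecules. The kit version is given differently by the labels (5′) and the study's methods (3′), and its part in these ratios was not tested.

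**Figure D3:**
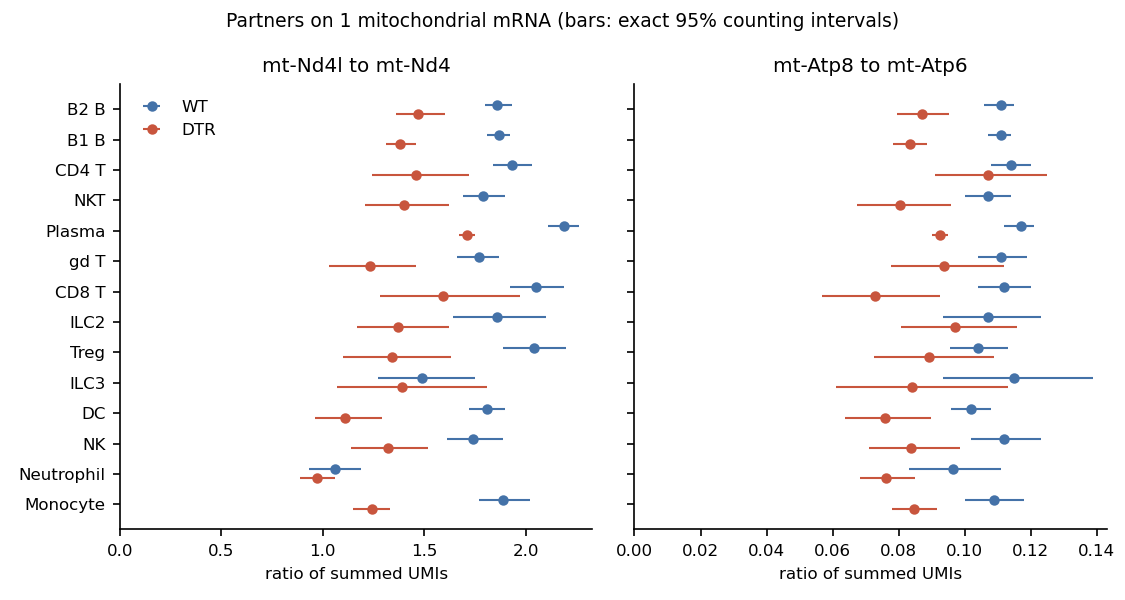
Ratio of summed UMIs of mt-Nd4l to mt-Nd4 (left) and of mt-Atp8 to mt-Atp6 (right) in 14 named classes, WT in blue and DTR in red, with exact 95% counting intervals as bars. All DTR points lie to the left of their WT points, with medians of 1.86 and 1.38 on the left and 0.111 and 0.0844 on the right.

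Of the 92 nuclear members, 82 had at least 100 UMIs in 5 or more named classes, and 10 did not: Ndufaf1, Ndufaf2, Ndufaf5, Ndufaf6, Cox4i2, Cox6a2, Cox6b2, Cox7a1, Cox8b and Ndufa4l2. Among all tested pairs of nuclear member and class, 13 of 1088 were past 1.5-fold higher in DTR (1.2%, beside 7.19% of all pairs) and 109 were past 1.5-fold lower (10.0%, beside 9.69%). Nuclear members past 1.5-fold lower were thus about as frequent as among all genes. By median over classes, 50 of the 82 were lower in DTR and 32 higher, beside 53.9% and 46.1% of 6206 genes. In 12 of the 82 (14.6%) every class tested was lower, beside 4.0% of all genes and 8.75% of 80 cytosolic ribosomal protein genes. Ndufv1 was higher in all 13 of its classes, beside 2.85% of all genes.

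The genes that were lower throughout encode small subunits, but not all small subunits were among them, Uqcrb for example. The 12 were Atp5k, Atp5e, Atp5j2 and Atp5md of complex V, Ndufa3, Ndufa5, Ndufa13, Ndufb1, Ndufb3 and Ndufc1 of complex I, and Cox7b and Cox7c of complex IV. Counts of Ndufa13, like those of Cox4i1, Ndufb2, Ndufb8, Ndufb9 and Atp5o, are uncertain because another protein-coding gene overlaps it on the same strand.

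The 8 lowest medians belonged to Atp5k, Ndufa3, Uqcrb, Cox7c, Atp5j2, Ndufc1, Atp5e and Ndufb3, from −0.68 to −0.49. Atp5k encodes subunit e of ATP synthase, a small membrane subunit involved in its dimers. Its level was 0.625 in WT and 0.25 in DTR in B1 B-like cells and 0.744 and 0.360 in NKT-like cells. In gd T-like cells, the closest, it was 0.722 and 0.595. Ndufa3, an accessory subunit of complex I, had a median of −0.66 over 13 classes, and in CD4 T-like cells went from 2.01 to 0.880. Its counting interval lay below 0 in all 13.

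Uqcrb, a small subunit of complex III, had a median of −0.58, with 2.71 in WT and 1.22 in DTR in gd T-like cells. It was at 2.27 in both libraries in DC-like cells and at 2.71 and 2.75 in monocyte-like cells. Cox7c, a small subunit of complex IV, was lower in 14 of 14 classes, from 3.73 to 1.97 in NK-like cells and from 1.48 to 1.34 in neutrophil-like cells. Atp5e, the epsilon subunit of ATP synthase, was lower in 14 of 14 as well, from 7.09 to 4.29 in CD4 T-like cells and from 6.68 to 5.83 in monocyte-like cells. Medians were −0.57 for Atp5j2 (subunit f of ATP synthase), −0.52 for Ndufc1 and −0.49 for Ndufb3.

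The 8 highest medians, from 0.14 to 0.27, belonged to Sdhc, Ndufv1, Ndufa10, Ndufs3, Cox7a2l, Atp5b, Sdhd and Uqcrfs1. Several of these encode catalytic or redox subunits. Ndufv1, which binds NADH and the flavin of complex I, went from 0.700 to 1.2 in gd T-like cells, from 0.367 to 0.583 in plasma-like cells and from 0.849 to 1.21 in monocyte-like cells. Its counting interval lay above 0 in 4 of 13 classes. Atp5b, the catalytic beta subunit of ATP synthase, had a median of 0.18 and went from 2.47 to 3.25 in plasma-like cells and from 4.05 to 3.60 in DC-like cells. Medians were 0.20 for Ndufa10 and 0.18 for Ndufs3 (a core subunit of complex I), 0.18 for Cox7a2l (a factor of respiratory supercomplexes) and 0.14 for Uqcrfs1 (the iron-sulfur protein of complex III).

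The 14 pairs past 1.5-fold higher fell into 4 classes. In gd T-like cells they were Ndufa10, Sdhc, Ndufaf4 and Ndufv1 (beside 7.04% of all genes tested in that class), and in neutrophil-like cells Ndufa8 and Sdhd (beside 17.5%). Plasma-like cells held Cox4i2, Ndufaf4, Uqcrq, Uqcrfs1, Ndufv1 and Ndufa1 (beside 7.42%), and DC-like cells Cox7a2l and mt-Co1 (beside 8.88%). No member's median over classes was past 1.5-fold higher, beside 1.6% of all genes, and 4 were past it lower (mt-Nd3, mt-Nd6, Atp5k and Ndufa3), beside 1.95%.

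Complex II, the complex with no mitochondrial subunit, was the only one whose summed level had a median above WT. Its median log2 ratio was 0.10, between 0.06 and 0.13 in 16 other settings, and it was lower in 6 of 14 classes. The highest log2 ratio, 0.58, was in neutrophil-like cells, with summed levels of 1.74 in WT and 2.60 in DTR. The counting interval lay above 0 in B2 B-like, monocyte-like, neutrophil-like and plasma-like cells. It included 0 in B1 B-like, CD4 T-like, CD8 T-like, DC-like, ILC2-like, ILC3-like, NK-like, NKT-like and Treg-like cells. Sdhc, a membrane anchor, had a median of 0.27 and went from 0.483 to 0.735 in gd T-like cells and from 0.583 to 0.875 in monocyte-like cells, while Treg-like cells had 0.499 and 0.460. Sdhd, the other anchor, had a median of 0.18 and went from 0.482 to 0.866 in neutrophil-like cells. Sdhb, the iron-sulfur subunit, had a median of 0.10. Sdha, the flavin subunit, had a median of −0.06, with a sign that was not kept in every setting.

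For complexes with both kinds of subunit, the nuclear and the mitochondrial part did not take the same order. Summed nuclear levels had medians of −0.14 for complex I (lower in 12 of 14 classes), −0.17 for complex III (10), −0.20 for complex IV (12) and −0.09 for complex V (10). Summed mt- levels had medians of −0.35 for complex I, −0.42 for complex III, −0.01 for complex IV and −0.04 for complex V. Of these medians, the sign of the mt- part of complex IV turned in 1 of 16 other settings (0.03 with totals free of mt-, receptor and ribosomal protein genes), and the others kept theirs in all 16. By these medians, complex IV had its nuclear part lower and its mitochondrial part near WT. Complexes I and III had the mitochondrial part lower than the nuclear part. By class, the mt- part of complex IV ran from −0.43 in ILC3-like to 0.53 in DC-like cells. It was lower in 8 of 14 classes, so the median near 0 does not describe each class.

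**Figure D4:**
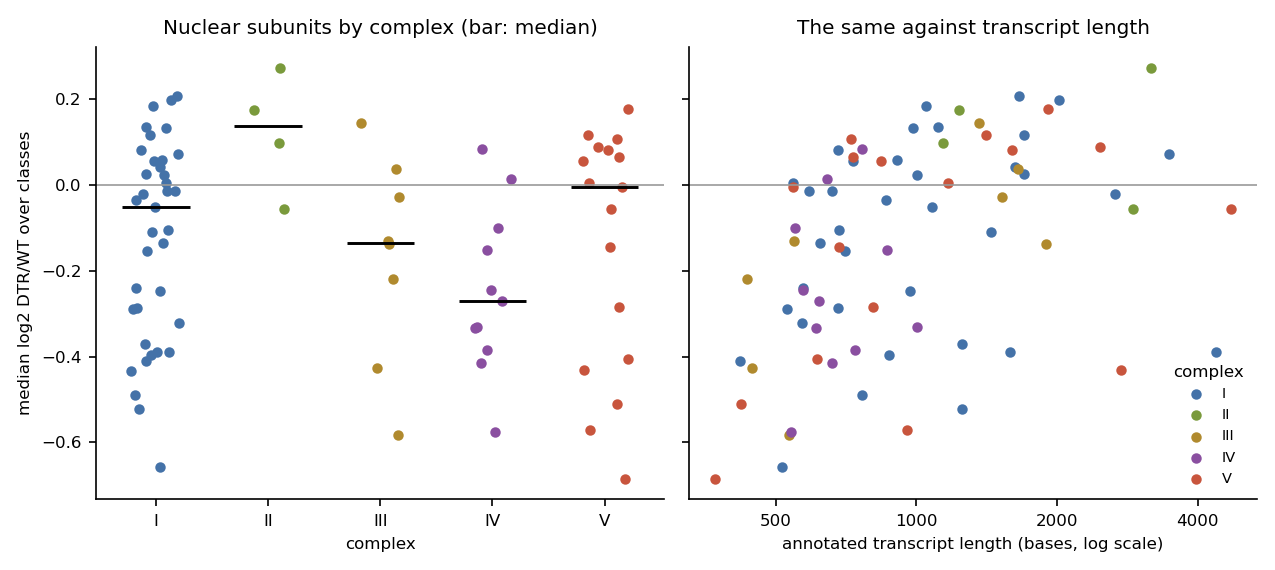
Median over classes of the log2 ratio DTR/WT of each nuclear subunit tested in at least 5 classes, by complex with the median of the subunits as a bar (left) and against annotated transcript length in bases on a log scale (right), each point 1 gene. Atp5k at −0.68 is the lowest and Sdhc at 0.27 the highest, and short transcripts lie lower.

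Annotated transcript length went with the differences among nuclear members. Over the 81 with a length, log10 length and median log2 ratio were correlated with Pearson's r = 0.42 and Spearman's rho = 0.47. The 45 with transcripts under 1000 bases had a median of −0.24 and the 36 longer ones 0.03. Over the 13 mt- genes r was 0.52. Over 80 genes of cytosolic ribosomal proteins, which also have short transcripts, r was 0.42, and over all 6012 genes that are not members, these included, r was −0.11. Among those 6012, the 74 with transcripts under 600 bases had a median of −0.18 and the 5938 longer ones −0.02. Genes are not independent replicates, these values describe 1 pair of libraries, and the part of length or of 3′ and 5′ reading in the differences was not tested.

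Promoters of the nuclear members were compared with the differences because nuclear respiratory factor 1 (NRF1), ETS factors such as GABP, and YY1 are known regulators of these genes. Motifs were searched on both strands in windows of 250 bases before and 50 after the start of each gene (RefSeq, GRCm38.p6), as GCGCA, any base and GCGC for NRF1, CCGGAAG for ETS and AAGATGG for YY1. The table held a promoter for 76 of the 92. NRF1 letters were in 23.7% of them, beside 8.28% of 14057 promoters of listed genes, ETS letters in 23.7% beside 15%, and YY1 letters in 14.5% beside 6.61%. At least 1 motif was in 53.9%, beside 26.5%. Among the 42 members with a median below 0 the shares were 23.8%, 31.0% and 16.7%, and among the 28 with a median of 0 or above 25%, 14.3% and 14.3%.

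The 250 bases before the start are shown for Atp5k, the lowest member, Sdhd, one of the highest, and Cox6a1, the common isoform of a family described below, which hold NRF1 letters in each case. All are on the − strand, and capitals mark the motif matches.
Atp5k, chr5:108434400-108434649: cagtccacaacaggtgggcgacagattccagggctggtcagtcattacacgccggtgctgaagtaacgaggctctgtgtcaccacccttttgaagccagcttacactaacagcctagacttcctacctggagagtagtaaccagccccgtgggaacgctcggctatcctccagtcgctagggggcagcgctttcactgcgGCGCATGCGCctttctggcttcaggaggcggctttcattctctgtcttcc
Sdhd, chr9:50603850-50604099: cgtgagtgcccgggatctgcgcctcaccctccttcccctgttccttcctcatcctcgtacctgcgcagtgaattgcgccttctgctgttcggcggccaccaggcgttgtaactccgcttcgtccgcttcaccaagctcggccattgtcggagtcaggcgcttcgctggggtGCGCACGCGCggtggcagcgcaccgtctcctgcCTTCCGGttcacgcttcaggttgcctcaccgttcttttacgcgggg
Cox6a1, chr5:115348959-115349208: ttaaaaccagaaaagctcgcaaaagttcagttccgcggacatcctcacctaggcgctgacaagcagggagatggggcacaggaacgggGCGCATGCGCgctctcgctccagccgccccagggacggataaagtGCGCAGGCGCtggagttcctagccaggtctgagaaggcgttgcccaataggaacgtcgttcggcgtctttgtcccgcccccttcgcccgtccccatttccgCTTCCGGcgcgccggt
NRF1 letters were thus present in Atp5k, the lowest, and in Sdhd, one of the highest. Among the 8 lowest medians, YY1 letters were in Ndufa3, Cox7c, Atp5j2 and Ndufc1 and not in Atp5k, Atp5e or Ndufb3. Among the 8 highest, Ndufv1, Ndufa10, Ndufs3, Cox7a2l, Atp5b, Sdhd and Uqcrfs1 had no YY1 letters. No promoter was available for Uqcrb and Sdhc.

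The nuclear members with the widest range across classes in WT were Ndufa5, Atp5md, Atp5g2, Atp5g1, Ndufaf4 and Ndufc2. Neutrophil-like cells were the lowest class for 5 of the 6, and plasma-like cells for Atp5md. Ndufa5, an accessory subunit of complex I, ranged from 0.0893 in neutrophil-like to 1.4 in ILC3-like cells. Atp5md, a small membrane subunit of ATP synthase, ranged from 0.854 to 7.98 in ILC3-like cells and was at 4.80 in ILC2-like and 3.94 in gd T-like cells. In DTR ILC3-like cells were again the highest, at 6.39, with 3.48 in gd T-like and 3.06 in ILC2-like cells against 0.660 in plasma-like cells. Ndufaf4, an assembly factor of complex I, ranged from 0.0357 to 0.463 (CD8 T-like), and Ndufc2 from 0.390 to 2.28 (DC-like).

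Atp5g1, Atp5g2 and Atp5g3 encode the same mature c subunit of the ATP synthase ring behind different import sequences. In WT the level of Atp5g2 was 8.20 in B1 B-like and 1.24 in neutrophil-like cells, that of Atp5g1 3.43 in gd T-like and 0.527 in neutrophil-like cells, and that of Atp5g3 6.18 in monocyte-like and 1.85 in neutrophil-like cells. Their medians between libraries were 0.06 for Atp5g2, −0.06 for Atp5g1, whose sign was not kept in every setting, and 0.11 for Atp5g3.

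Several isoforms of complex IV subunits were high in few kinds of cells. Cox6a1, the common form of subunit 6A, lay between 2.16 (plasma-like) and 4.78 (monocyte-like) in WT. Cox6a2, the form known from heart and skeletal muscle, reached 14.5 UMIs per 10000 in the 61 plasmacytoid dendritic (pDC)-like cells of WT, with UMIs in 54 of them (88.5%). In the 12 pDC-like cells of DTR it was 3.53, with UMIs in 10. Among 6 classes of WT not known to use this form, the share with a UMI ran from 0 in monocyte-like cells over 0.133% in B2 B-like cells (median depth 4306.5 UMIs, against 8417 in WT and 7019.5 in DTR pDC-like cells) to 1.26% in NK-like and 1.92% in DC-like cells. Plasma-like cells came next among the classes with 30 cells in each library, with 0.171 in WT (UMIs in 62 of 601 cells) and 0.0633 in DTR (83 of 2178), a log2 ratio of −1.20 (−1.62 to −1.16 over all settings). After thinning to 5000 UMIs per cell, 5.15% (exact binomial interval 3.50 to 7.27) of WT and 2.05% (1.49 to 2.75) of DTR plasma-like cells had a UMI of Cox6a2. At that depth the share was 3.39% (0.931 to 8.45) of 118 WT NK-like cells, so plasma-like cells were not set apart from that class, and 84.7% of 59 WT pDC-like cells. Cluster 2 held most of it, at 0.257 and 0.0933.

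Cox4i2, the isoform of subunit 4 known from lung, smooth muscle and low oxygen, showed the opposite difference in plasma-like cells and the highest ratio of any tested member and class. Its level was 0.0152 in WT, from 35 UMIs in 3.33% of 601 cells, and 0.240 in DTR, from 1291 UMIs in 21.9% of 2178 cells. The log2 ratio was 2.88, between 2.73 and 3.30 over all settings, and at 3.18 to 4.19 for the interval on summed UMIs. Thinned to 5000 UMIs, 0.515% (exact binomial interval 0.106 to 1.5) of WT and 8.77% (7.59 to 10.1) of DTR plasma-like cells had a UMI. B1 B-like, B2 B-like and NK-like cells had none in either library. Before thinning, 2.87% of WT and 3.08% of DTR monocyte-like cells had a UMI, and 0.426% and 1.28% of DC-like cells. After thinning the share was 0.980% (0.119 to 3.50) of DTR monocyte-like cells, with none in WT monocyte-like cells or in DC-like cells of either library.

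In plasma-like cells the difference in Cox4i2 was present in each of the 4 clusters. Cox4i2 was at 0.147 in WT and 0.880 in DTR in cluster 17, where it was highest, and at 0.00371 and 0.315 in cluster 19. In cluster 4 it was at 0.00229 and 0.241 and in cluster 2 at 0.000824 and 0.0487, and in these 3 clusters WT held only 1 or 2 UMIs each. The common isoform Cox4i1 was at 4.34 and 5.05 in plasma-like cells and at 11.7 and 16 in monocyte-like cells, its highest class. Its median was 0.08, and it is among the genes with an overlapping neighbour. Neutrophil-like cells had no UMI of Cox4i2 in 240 WT cells, which allows a share of cells with a UMI of up to 1.25%, and 34 UMIs in 13 of 789 DTR cells. Plasma markers in neutrophil-like cells summed to 7.01 UMIs per 10000 in WT and 23.3 in DTR, and their part there was not tested.

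Outside the compared classes, Cox4i2 and Ndufa4l2, a paralog of Ndufa4 known from low oxygen and from pericytes, were highest in cluster 30, whose leading genes are Tagln, Acta2 and Myh11. There Cox4i2 was at 4.33 in 17 WT cells and 1.83 in 9 DTR cells, and Ndufa4l2 at 9.66 and 10.4. In plasma-like cells Ndufa4l2 was at 0.0138 and 0.0226. Cox6b2, known from testis, was at 1.4 in WT and 0.358 in DTR in stromal-like cells and at 0.158 and 0.132 in DC-like cells. Cox7a1, the muscle form of subunit 7A, had 68 and 10 UMIs in all, and Cox8b 0 and 1. The common forms Cox6b1, Cox7a2, Cox7b, Cox8a and Ndufa4 had medians between −0.42 and −0.10.

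**Figure D5:**
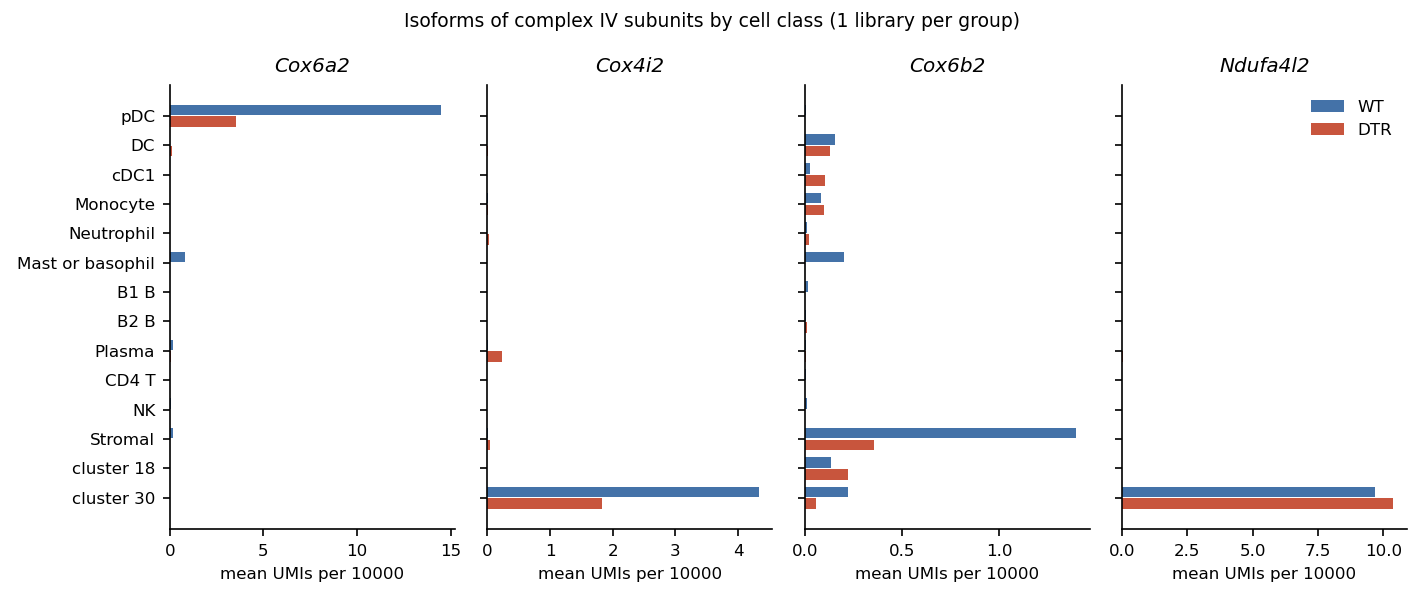
Mean UMIs per 10000 of Cox6a2, Cox4i2, Cox6b2 and Ndufa4l2 (linear axes from 0, 1 panel each) in selected classes and numbered clusters, WT in blue and DTR in red, 1 library each. Cox6a2 is highest in pDC-like cells, Cox4i2 and Ndufa4l2 in cluster 30, Cox6b2 in stromal-like cells, and Cox4i2 in plasma-like cells is visible in DTR only.

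Other genes of the pathway did not share 1 direction. Their counts stand beside 7.19% higher and 9.69% lower among all pairs. Among electron carriers and exchangers, 6 of 114 pairs (5.26%) were past 1.5-fold higher and 3 (2.63%) lower, shares below both. Slc25a3 (the phosphate carrier) and Slc25a5 (an ADP/ATP exchanger) were higher in 14 of 14 classes, with medians of 0.30 and 0.26, while Slc25a4, another exchanger, had −0.53 and Cycs (cytochrome c) −0.19. Assembly factors and small subunits outside the rule had 12 of 204 pairs higher (5.88%) and 31 lower (15.2%) and a median of −0.20 over 18 genes. Among these, Cox20, Cox17 and Chchd2 had medians of −0.64, −0.49 and −0.46, and Sdhaf1, an assembly factor of complex II, 0.51. Genes of mitochondrial transcription and RNA handling had 4 pairs higher (4.30%) and 7 lower (7.53%) of 93 (Tfam −0.39, Tfb2m 0.43), and nuclear regulators 5 and 6 of 64 (Nrf1 0.11, Gabpa 0.14).

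Neighbouring pathways had medians between 0.04 and 0.18. The mitochondrial ribosome had 36 pairs higher (4.69%) and 34 lower (4.43%) of 768, with a median of 0.05 over 72 genes and Mrps21 the lowest at −0.72. The tricarboxylic acid cycle had 4 higher and 4 lower of 172 (2.33% each, median 0.05), and cytosolic ribosomal proteins 11 (0.984%) and 25 (2.24%) of 1118 (median 0.06), all fewer than among all pairs. Glycolysis had 18 (10.5%) and 8 (4.65%) of 172 (median 0.04), and mitochondrial protein folding and proteolysis 8 and 8 of 89 (8.99% each, median 0.18, with Hspe1 at −0.57). Of the nuclear-retained RNAs used to judge RNA quality, Neat1 had a median of 0.62, higher in 13 of 13 classes, and Malat1 −0.46, lower in 10 of 14, and their part in the member values was not tested.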

How the data were processed

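The authors deposited 1 matrix per library of natural log values, ln(1 + x) with x in UMIs per 10000 UMIs of a cell. Per the labels, counts came from Cell Ranger 6.0.0 with mm10 and a 5′ kit, whereas the study's methods name another version and a 3′ kit. Whole UMIs were recovered from the steps of the values (99.97% and 99.91% of values within 0.1 of a whole number). As in the study, cells with 200 to 7500 genes and at most 25% mitochondrial UMIs were kept (8654 and 5727), without batch correction. SCTransform (sctransform 0.4.2, Seurat 5.3.0, R 4.3.3) used 3000 features, without members and receptor segments, 30 components and resolution 0.8. A cluster needed 3 markers (2 times the other cells and detected in at least 10% of cells), a score (share of a list) of 0.5 and a lead of 0.3. With a smaller lead it took, of the names within 0.15 of the top score, the one with most markers among its 10 leading genes, as for B1 B, DC, Treg, naive CD4 T and CD8 T, a tie of CD4 T and Treg going to Treg. A cluster stayed unnamed where another list had more of these. The thresholds were set after the clusters were seen. Scrublet (scanpy 1.11.5, score 0.25) marked 135 WT and 103 DTR cells, removed only in an alternative.

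A pair of gene and class was tested for size with at least 100 UMIs over both libraries, 0.02 UMIs per 10000 being added to both means, and was past the limit at 1.5-fold. Medians need 5 classes. With 1 library per group no p-value or standard error was computed, and the scripts were tested on simulated data. Named genes are all mt- genes, the 8 highest and 8 lowest nuclear medians, the 6 widest ranges in WT, complex II and the isoform families. Members, lists and rules were chosen with earlier results of these data known. Promoters are RefSeq's (GRCm38.p6) and transcript lengths GENCODE's. The total count per library limits precision as the counting intervals show.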

Additional observations from a re-analysis of the deposited data

How the results depend on the processing

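The class sums and their ratios, the complex medians, the named member medians, the pair counts and Cox4i2 and Cox6a2 in plasma-like cells were recomputed under 14 planned settings and 3 added after the data were seen (the median over cells, cells with 2000 or more UMIs, and 1 cluster per class), or 14 to 16 of these where a setting gave no value. Of the recomputed values past 1.5-fold, the medians of Atp5k, Ndufa3, mt-Nd3 and mt-Nd6 and the plasma-like values of Cox4i2 and Cox6a2 kept their sign. The mt- shares, partner ratios, correlations and motif shares were not recomputed. Of 1596 other values, 1400 moved by less than their counting interval and 49 took the other sign, none of them past 1.5-fold. The median over classes of the mt- sum (−0.12) was −0.16 on summed UMIs and −0.16 with at most 10% mitochondrial UMIs. The median of the mt- to nuclear ratio (−0.04) was 0.0338 on summed UMIs and with TMM factors, 0.00808 with at least 500 genes per cell and 0.0316 with 1 cluster per class. Its range over classes in WT (2.23) was 2.40 on summed UMIs and with TMM factors, 2.13 at resolution 1.6, 2.54 by the median over cells, 2.13 with 2000 or more UMIs and 4.04 with 1 cluster per class. Classes with a higher mt- sum (2) were 4 with totals free of mt-, receptor and ribosomal protein genes and with 500 genes, and 1 with at most 10% mitochondrial UMIs and by the median over cells. Pairs past 1.5-fold higher (14) were 22 with a minimum of 20 UMIs and 9 with 500, and pairs lower (142) were 70 with 500, since the minimum sets how many pairs are tested. The cause of the other shifts was not tested. No paired analysis was possible because each group is 1 library, and no replicate could be left out. Rare members, such as Cox7a1, are limited by counting.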

Other observations

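Classes not compared above gave further values. Cluster 13, led by Saa3, Fcna, Lyve1 and Folr2, had the highest mt- share of the named classes and numbered clusters compared, 3.06% in WT and 3.87% in DTR, and a ratio to nuclear members of 1.41 and 1.90. This cluster carried 7 markers of the macrophage list (score 1, beside 0.714 for the monocyte list) and stayed unnamed under the naming rule. Over cells with at most 10% mitochondrial UMIs (6.23% of its DTR and 1.6% of its WT cells exceeded this) the shares were 2.93% and 3.09% and the ratios 1.35 and 1.51, and on summed UMIs the mt- share had a log2 difference of −0.04, the other sign. Its neutrophil markers summed to 0.630 and 14.5 UMIs per 10000. Cluster 18, led by Elane, Mpo and Prtn3, genes of neutrophil precursors, held 2.09% and 1.85% nuclear members, more than the 1.0% and 1.02% of neutrophil-like cells, with mt- shares of 1.15% and 1.16%. Cluster 23, led by Cenpf, Top2a and Birc5, genes of dividing cells, had 2.47% and 2.24% nuclear members and 1.71% mt- in both. Cluster 30, on 17 and 9 cells, had 5.21% and 3.06% mt- and 3.71% and 2.54% nuclear.

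Over all cells the median mt- share was 2.05% in WT and 1.10% in DTR, a wider gap than in any named class. Plasma-like and neutrophil-like cells, the classes with the lowest shares, numbered 601 and 240 in WT and 2178 and 789 in DTR. Among cells under 1000 UMIs the median mt- share was 10.5% in 112 WT cells and 5.47% in 122 DTR cells, and among cells of 5000 to 10000 UMIs it was 2.17% and 1.98%.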
